A study of Homo sapiens with 9 samples.

Results

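The genes described here are 54 genes of the G2 phase and mitosis, taken from a list of gene symbols drawn up with earlier results of these data known; the list's rule uses no measured value. All 54 were measured, by 84 probe sets that the platform annotation assigns to exactly 1 gene symbol, among 11963 genes and 19064 such probe sets in the series. A probe set is a group of short probes on an Affymetrix array that reads 1 transcript region. Of the 54 genes, 37 had 1 probe set and 17 had several, and the brightest probe set stands for a gene unless stated.

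RNA came from LNCaP cells, an established human prostate cancer line that depends on androgen signalling. By the labels, every culture was first starved of steroid for 2 days, in medium whose 10% serum had been stripped with charcoal. Afterwards 3 cultures received ethanol and DMSO (vehicle), 3 received 1 nM R1881, a synthetic androgen, with DMSO, and 3 received 1 nM R1881 with 20 µM gedunin, a natural product of plants that is known to impair the chaperone HSP90. Treatment lasted 24 h, except that titles of the R1881 group give 6 h against 24 h in its protocol, so the length of that treatment is not settled. No group received gedunin without R1881, and all groups are 1 cell line.

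Cells that approach mitosis build up cyclin B and activate the kinase CDK1, then assemble a spindle, attach chromosomes through kinetochores and wait at the spindle checkpoint. The anaphase-promoting complex with CDC20 then ends mitosis by protein destruction. Many of the genes involved are transcribed in a wave late in the cell cycle and are low in resting cells, so their RNA is widely used as a readout of dividing cells. In prostate cancer cells androgen is known to affect proliferation in a dose-dependent way.

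Array medians lay between 52.4 and 54.5 intensity units, and the correlation r of log2 values over genes was 0.996 to 0.998 for arrays of a group and 0.972 to 0.983 for arrays of different groups. KLK3, which encodes prostate-specific antigen and is induced by androgen, averaged 11839 on the arrays labelled vehicle, 1341 on those labelled R1881 and 7216 on the gedunin arrays. That order goes against the labels vehicle and R1881. KLK2 (means of 3164, 157 and 1006) and TMPRSS2 (3159, 187 and 959) ran in the same order. FKBP5 showed the largest fall of all 11963 genes from the arrays labelled vehicle to those labelled R1881 (log2 fold change -5.33). Groups are therefore named by their labels, and each direction between them rests on labels that the androgen gene KLK3 contradicts. Summed over 8 luminal prostate markers, intensity was 29174 to 31653 on the arrays labelled vehicle, 6225 to 6828 on those labelled R1881 and 15042 to 16428 on the gedunin arrays. The sum was carried by KLK3, KLK2, KRT8, KRT18 and TMPRSS2. The other 3 markers went the opposite way from the arrays labelled vehicle to those labelled R1881, FOLH1 from a mean of 268 to 708, HOXB13 from 762 to 1147 and EPCAM from 535 to 725. The part of these changes in the results below was not tested. None of 3 basal epithelial markers and 1 of 4 leukocyte markers exceeded the lowest array median in any group. Of 6 fibroblast markers 4 did, with sums of 423 to 458, 420 to 479 and 451 to 468 in the same order of groups. The labels call the cultures biological replicates without saying how they were kept apart, so p-values measure the spread between these arrays. In RNA from whole cultures, a change in the number of cells in G2 or mitosis and a change in RNA per such cell cannot be told apart.

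Many genes of this wave carry 2 known promoter elements, the cell cycle genes homology region (CHR, searched as TTTGAA or TTCGAA) and the CCAAT box that NF-Y binds (searched as CCAAT). Windows from 250 bases before to 50 bases after the start of 46 of the 54 genes were found in RefSeq (GRCh38.p14), and both strands were searched. A CHR match was present in 32 of 46 windows (69.6%), against 12.4% of 9563 measured genes and 16.6% of all 27305 windows of that length. A CCAAT match was present in 33 of 46 (71.7%), against 37.3% of measured genes and 35.7% of all windows. Both occurred together in 26 of 46 (56.5%), against 5.25% of measured genes. In the 50 bases before the start, a stretch chosen after the positions were seen, a CHR match began in 34.8% of the 46 windows and in 1.85% of measured genes. Matches of the searched motifs can lie side by side or share bases, as in HMMR, and then form 1 run of capitals. The 180 bases before the start are shown for the 3 genes with the largest called rise and the 2 with the largest called fall from the arrays labelled R1881 to the gedunin arrays, among those with a window. Capitals mark CHR and CCAAT matches on either strand.
CKS2 (chr9:89311015-89311194, plus strand): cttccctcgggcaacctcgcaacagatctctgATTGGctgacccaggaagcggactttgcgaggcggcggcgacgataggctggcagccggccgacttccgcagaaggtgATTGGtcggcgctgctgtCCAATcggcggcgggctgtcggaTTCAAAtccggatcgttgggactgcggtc
HMMR (chr5:163460452-163460631, plus strand): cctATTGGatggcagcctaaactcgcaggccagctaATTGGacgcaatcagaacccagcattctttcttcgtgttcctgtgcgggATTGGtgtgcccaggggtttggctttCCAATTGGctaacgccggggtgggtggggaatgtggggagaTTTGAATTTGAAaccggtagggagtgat
NEK2 (chr1:211675622-211675801, minus strand): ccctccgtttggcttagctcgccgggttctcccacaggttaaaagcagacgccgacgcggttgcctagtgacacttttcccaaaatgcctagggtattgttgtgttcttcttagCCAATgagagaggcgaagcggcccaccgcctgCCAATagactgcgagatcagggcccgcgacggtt
CDK1 (chr10:60778151-60778330, plus strand): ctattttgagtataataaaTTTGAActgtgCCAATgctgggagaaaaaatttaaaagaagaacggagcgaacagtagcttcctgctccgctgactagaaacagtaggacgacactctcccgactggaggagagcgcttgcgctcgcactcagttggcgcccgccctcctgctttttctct
LMNB1 (chr5:126776443-126776622, plus strand): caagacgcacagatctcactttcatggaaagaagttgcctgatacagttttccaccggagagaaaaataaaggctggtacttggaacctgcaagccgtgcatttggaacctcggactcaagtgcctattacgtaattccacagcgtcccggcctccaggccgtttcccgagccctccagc

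In CKS2 a CHR match begins 29 bases before the start and in HMMR 2 begin 28 and 22 bases before it, with CCAAT boxes upstream. NEK2 held 2 CCAAT boxes and no CHR match. In CDK1 the CHR match begins 161 bases before the start, and LMNB1 had neither match in its window. Of windows of genes that rose in that comparison, 16 of 26 held a CHR match, against 3 of 4 of those lower and 13 of 16 of those not called. A match is a run of letters and no evidence of binding.

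The first comparison sets the arrays labelled R1881 against those labelled vehicle and, if the labels hold, addresses the effect of androgen after starvation. Of the 54 genes, 45 had higher RNA in the group labelled R1881 and 0 had lower RNA (limma, adjusted p under 0.05 over all genes), where 16.7% of all 11963 genes were called higher, 13.6% lower and 30.3% in either direction. At an unadjusted p under 0.05 the count lower was also 0. Their median log2 fold change was 0.74, against 0.00 over all genes. In 46 genes all 3 arrays labelled R1881 lay above all 3 labelled vehicle, a pattern shown by 21.4% of all genes, and in 0 genes below them (18.4% of all genes). At least 2-fold changes were called for 16 of the 54, against 3.32% of all genes in either direction.

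The second comparison sets the gedunin arrays against those labelled R1881 and, if the labels hold, asks what gedunin does beside R1881. If the labels vehicle and R1881 are exchanged, the third comparison takes its place and the first turns its sign. In the second comparison 30 of 54 genes were higher on the gedunin arrays and 5 lower, where 14.0% and 13.4% of all genes were called, 27.4% together. The median log2 fold change was 0.29 (all genes -0.01), and 4 genes changed at least 2-fold, against 2.48% of all genes. Groups did not overlap for 34 genes that were higher and 5 that were lower, against 18.4% and 19.2% of all genes. In both counts the 5 of 54 lower lay under the share of all genes. If the 6 h in the titles holds, the length of treatment differs in the first and the second comparison and cannot be told apart from the agents. That difference then also enters the fourth comparison and the F-test over the 3 groups, described below, as both include the arrays labelled R1881. If the labels are exchanged as well, the 6 h would belong to the arrays labelled vehicle. It would then enter the third comparison in place of the second.

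The third comparison, gedunin arrays against those labelled vehicle, found 44 of 54 genes higher and 0 lower (all genes 15.0% and 11.9%, together 26.9%), with a median log2 fold change of 0.99. At an unadjusted p under 0.05 limma also found 0 lower. Changes of at least 2-fold were called for 26 genes, against 2.21% of all genes. All gedunin arrays lay above all arrays labelled vehicle for 45 genes and below for 0 (19.5% and 18.8% of all genes). NDC80 differed by 2.39 ± 0.15 (log2, SE) and HMMR by 2.39 ± 0.08, the largest rises there, while CDK1 was not called (0.12 ± 0.08). This comparison shares arrays with each of the other comparisons, so the comparisons are not independent of each other. The fourth sets the gedunin arrays against the mean of both other groups and reads the same whichever way the other two labels belong. In it 41 genes were higher and 1 lower (all genes 14.4% and 12.1%, together 26.5%), with a median log2 fold change of 0.68. All 3 gedunin arrays lay above all 6 other arrays for 34 of 54 genes and below for 0, against 9.73% and 7.87% of all genes. At least 2-fold changes were called for 16 genes, against 1.28% of all genes. In a moderated F-test over the 3 groups 46 of 54 genes passed, against 39.3% of all genes.

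**Figure D1:**
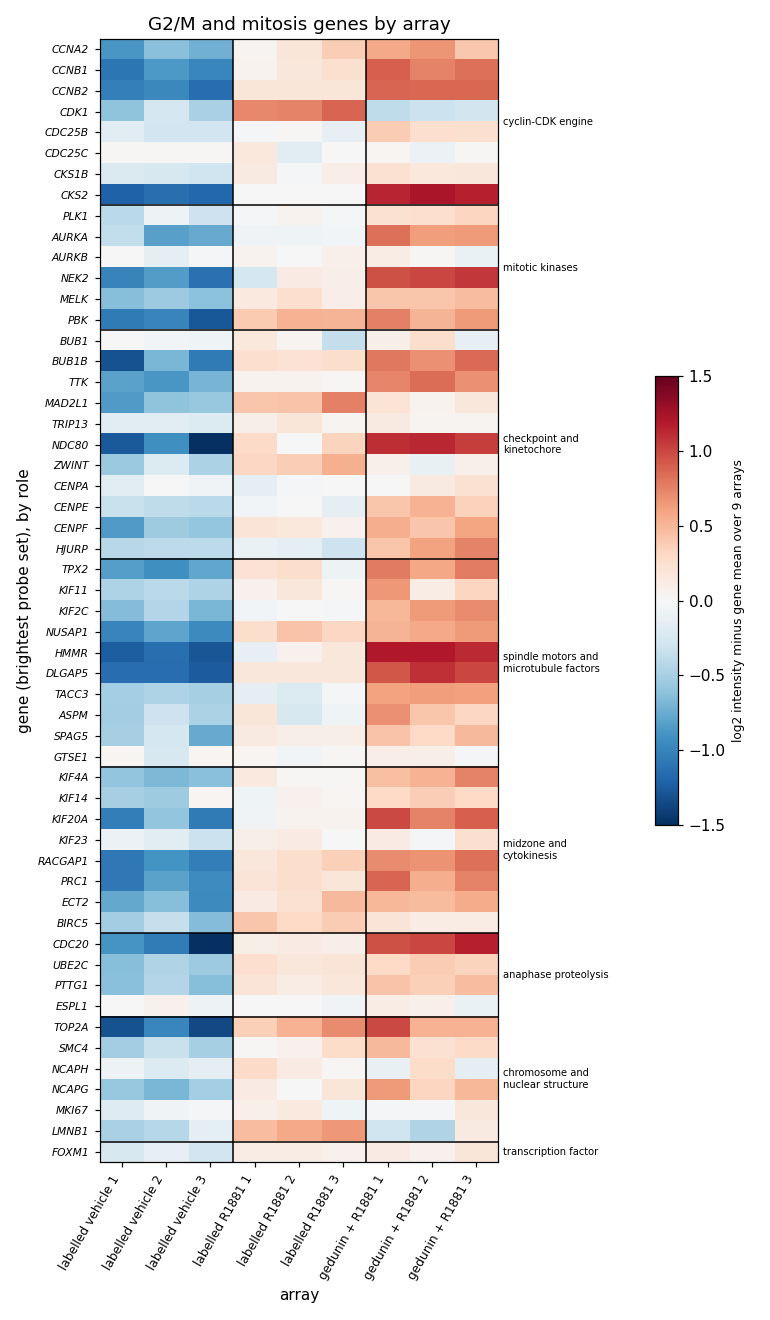
Log2 intensity of each of the 54 genes (rows, by role) on each of the 9 arrays (columns), as the difference from the gene's mean over the arrays; red is above and blue below that mean. Most rows run from blue on the arrays labelled vehicle to red on the gedunin arrays. CDK1, MAD2L1, ZWINT, LMNB1 and BIRC5, those called lower in the second comparison, are reddest on the arrays labelled R1881.

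Among the 8 genes of the cyclin and CDK engine, 7 were higher in the first comparison, and in the second 5 were higher and 1, CDK1, was lower. CKS2 encodes a small protein that binds the CDK and helps it act on substrates already phosphorylated. Its intensity was 354, 375 and 363 on the arrays labelled vehicle, 823, 823 and 822 on those labelled R1881, and 1810, 1916 and 1837 on the gedunin arrays. The 3 groups were far apart with no overlap. The log2 fold change was 1.18 ± 0.05 in the first comparison (SE, adjusted p = 1.65e-09) and 1.17 ± 0.05 in the second (adjusted p = 2.99e-09), the largest rise of the 54 genes there. It was 2.35 ± 0.05 in the third and 1.76 ± 0.05 in the fourth (adjusted p = 2.03e-11).

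CKS1B, the paralog of CKS2, moved far less. It measured 226, 221 and 212 on the arrays labelled vehicle, 288, 255 and 279 on those labelled R1881, and 305, 292 and 295 on the gedunin arrays. CKS1B was higher by 0.32 ± 0.06 (log2) in the first comparison, while its value of 0.12 ± 0.06 in the second was not called (adjusted p = 0.184). The log2 difference of CKS2 minus CKS1B within an array was 1.05 higher in the gedunin group than in the group labelled R1881. The exact permutation test (two-sided) gave p = 0.1, which is the lowest value possible with groups of 3 (0.1 adjusted over 4 such tests).

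Cyclin B1 and CDK1 were measured side by side. CCNB1 encodes cyclin B1, the partner of CDK1 at mitotic entry, and measured 192, 223 and 205 on the arrays labelled vehicle, 419, 455 and 478 on those labelled R1881, and 751, 680 and 717 on the gedunin arrays. CCNB1 was higher by 1.13 ± 0.07 in the first comparison (log2, SE, adjusted p = 5.35e-08) and by 0.67 ± 0.07 in the second (adjusted p = 9.83e-06). CCNB2, for cyclin B2, ran from a mean of 132 ± 8.15 over 308 ± 0.370 to 496 ± 3.84 (intensity, SD, n = 3, groups in the same order). Its arrays labelled R1881 read 308.447, 307.806 and 307.806, so the small SD there rests in part on equal deposited values.

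CDK1 measured 260, 329 and 281 on the arrays labelled vehicle, 647, 658 and 718 on those labelled R1881, and 301, 314 and 326 on the gedunin arrays. The gedunin arrays overlapped those labelled vehicle and lay under every array labelled R1881. Its log2 fold change was 1.22 ± 0.08 in the first comparison (adjusted p = 8.03e-08) and -1.10 ± 0.08 in the second (adjusted p = 2.88e-07), the largest fall of the 54 in that comparison. In the third, which stands for gedunin beside R1881 if the labels are exchanged, CDK1 was not called at 0.12 ± 0.08 (adjusted p = 0.348), though it was with vehicle replicate 2 left out (0.21, adjusted p = 0.0452). It was the 1 gene lower in the fourth comparison, at -0.49 ± 0.07 (adjusted p = 0.000138). The other two CDK1 probe sets gave -1.0 and -0.83 in the second comparison, both called lower.

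Within an array, log2 CCNB1 minus log2 CDK1 was -0.49 ± 0.066 on the arrays labelled vehicle, -0.58 ± 0.048 on those labelled R1881 and 1.19 ± 0.111 on the gedunin arrays (SD, n = 3). This pair was chosen after its values were seen. No test was made on it.

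CCNA2, for cyclin A2, measured 32.2, 38.2 and 35.9, then 60.5, 67.1 and 76.4, then 87.5, 93.3 and 77.9 in the same order of groups. The groups did not overlap, though the arrays labelled vehicle lay under the lowest array median, which makes folds against them approximate. CCNA2 was higher by 0.94 ± 0.09 in the first comparison (log2, SE, adjusted p = 4.85e-06) and by 0.34 ± 0.09 in the second (adjusted p = 0.0147). The second call ended without R1881 replicate 1, gedunin replicate 1 or gedunin replicate 2 (adjusted p from 0.0508 to 0.0719). CDC25B, a phosphatase that helps activate CDK1, was higher by 0.21 ± 0.06 in the first comparison and 0.33 ± 0.06 in the second, the first call ending without any 1 of 4 arrays (vehicle replicate 2 or 3, R1881 replicate 1 or 2; adjusted p from 0.0696 to 0.0898). CDC25C, a related phosphatase, gave the same deposited value on all 3 arrays labelled vehicle and was not called in any comparison by its brightest probe set.

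**Figure D2:**
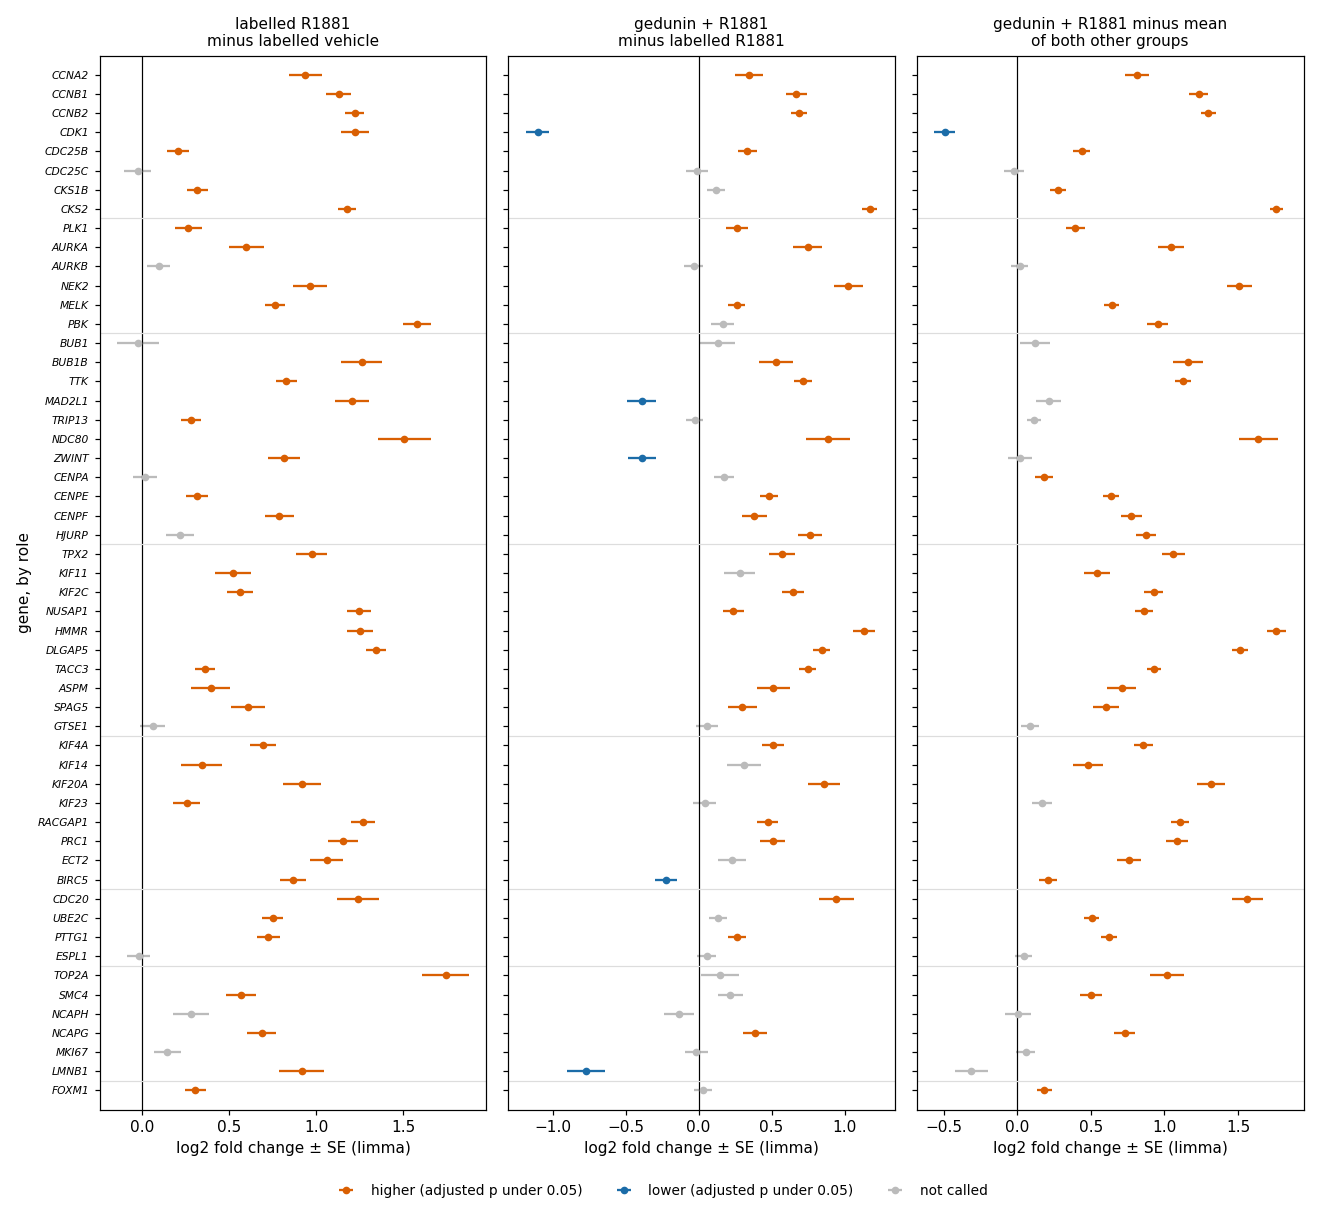
Log2 fold change with its standard error (limma, horizontal axis) of each of the 54 genes in the first, the second and the fourth comparison; orange points were called higher, blue lower and grey not called. In the left panel no called point lies under 0, in the middle panel CDK1, LMNB1, MAD2L1, ZWINT and BIRC5 do, and in the right panel CDK1 alone does.

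Among the 6 other mitotic kinases, 5 were higher in the first comparison and 4 in the second. NEK2, which acts in centrosome separation, measured 29.6, 33.0 and 27.3 on the arrays labelled vehicle, 49.1, 64.5 and 62.6 on those labelled R1881, and 115, 118 and 123 on the gedunin arrays. Its log2 fold change was 0.97 ± 0.10 in the first comparison (approximate, as the arrays labelled vehicle lay under the lowest array median) and 1.03 ± 0.10 in the second (adjusted p = 3.45e-06). AURKA, the aurora kinase of centrosomes and spindle poles, measured 75.6, 55.6 and 58.2, then 94.7, 94.0 and 95.2, then 174, 151 and 153. AURKA was higher by 0.60 ± 0.10 (adjusted p = 0.000421) and 0.75 ± 0.10 (adjusted p = 7.08e-05), and the groups did not overlap.

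AURKB, the aurora kinase of the chromosomal passenger complex, was at 51.4, 46.8 and 50.6, then 53.3, 51.4 and 54.4, then 55.4, 52.3 and 48.0. These values lay near the array medians and overlapped across all groups, with log2 fold changes of 0.10 ± 0.07 (adjusted p = 0.309) and -0.03 ± 0.07 (adjusted p = 0.784). Within an array, log2 AURKA minus log2 AURKB was 0.78 higher in the gedunin group than in the group labelled R1881 (exact two-sided permutation p = 0.1, also 0.1 adjusted over 4 tests). A probe set near background can miss a change, so this shows unequal readings of the 2 probe sets.

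PLK1, the polo-like kinase that drives mitotic entry and exit, measured 48.7, 61.1 and 52.1, then 63.8, 67.0 and 63.2, then 75.4, 76.7 and 80.4. PLK1 was higher by 0.27 ± 0.08 in the first comparison (adjusted p = 0.0174) and by 0.26 ± 0.08 in the second (adjusted p = 0.0208), with no overlap of groups. The first call ended without vehicle replicate 1 or 3 or R1881 replicate 2 (adjusted p from 0.0624 to 0.0853), and the second without R1881 replicate 1 or 3 or gedunin replicate 3 (0.055 to 0.0804). PBK, a mitotic kinase of the MAPKK-like family, measured 88.5, 93.2 and 76.9 on the arrays labelled vehicle, 243, 265 and 263 on those labelled R1881, and 312, 264 and 289 on the gedunin arrays. PBK was higher by 1.58 ± 0.08 in the first comparison (adjusted p = 6.82e-09) but not called in the second (0.16 ± 0.08, adjusted p = 0.176), where its groups overlapped. MELK was higher by 0.76 and 0.26.

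Of the 11 genes of the spindle checkpoint and kinetochore, 8 were higher in the first comparison, and in the second 6 were higher and 2 lower. NDC80, the microtubule-binding subunit of the outer kinetochore, measured 31.0, 39.3 and 22.6 on the arrays labelled vehicle, 90.8, 74.3 and 93.5 on those labelled R1881, and 160, 163 and 152 on the gedunin arrays. NDC80 was higher by 1.51 ± 0.15 (log2, SE, adjusted p = 5.09e-06, approximate for its low values on the arrays labelled vehicle) and by 0.89 ± 0.15 (adjusted p = 0.000586), and by 1.64 ± 0.13 in the fourth comparison (adjusted p = 9.45e-07). The checkpoint kinase genes BUB1B and TTK were higher by 1.26 and 0.83 in the first comparison and by 0.53 and 0.71 in the second, those of TTK being approximate as it lay under the lowest array median in both groups with labels vehicle and R1881. CENPE, a kinetochore motor, was higher by 0.48 in the second comparison, CENPF by 0.38 and HJURP, the chaperone that deposits CENPA, by 0.76.

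MAD2L1, the checkpoint protein that holds CDC20 inactive, went the other way in the second comparison. It measured 117, 139 and 142 on the arrays labelled vehicle, 281, 285 and 355 on those labelled R1881, and 243, 218 and 237 on the gedunin arrays, so the gedunin arrays lay between the other groups with no overlap. Its log2 fold change was 1.21 ± 0.10 in the first comparison (adjusted p = 5.56e-07) and -0.39 ± 0.10 in the second (adjusted p = 0.00814). In the third MAD2L1 was higher by 0.82 ± 0.10 (adjusted p = 2.77e-05). ZWINT, a kinetochore protein that recruits the ZW10 complex, measured 180, 230 and 192, then 329, 342 and 384, then 280, 246 and 280. It was higher by 0.81 ± 0.09 (adjusted p = 1.51e-05) and then lower at -0.39 ± 0.09 (adjusted p = 0.00624), again between the other groups. In the third comparison ZWINT was higher by 0.43 ± 0.09 (adjusted p = 0.00356). TRIP13, the ATPase that takes checkpoint complexes apart, was higher by 0.28 in the first comparison and not called in the second (-0.03). CENPA, the centromeric histone, was called in neither (0.02 and 0.17). Both values are approximate, as CENPA lay under the lowest array median on the arrays labelled vehicle and R1881. In the fourth it was called higher at 0.18, a call that ended without any 1 of 6 arrays (vehicle replicate 1 or 3, R1881 replicate 1 or 2, gedunin replicate 2 or 3; adjusted p from 0.0502 to 0.214).

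**Figure D3:**
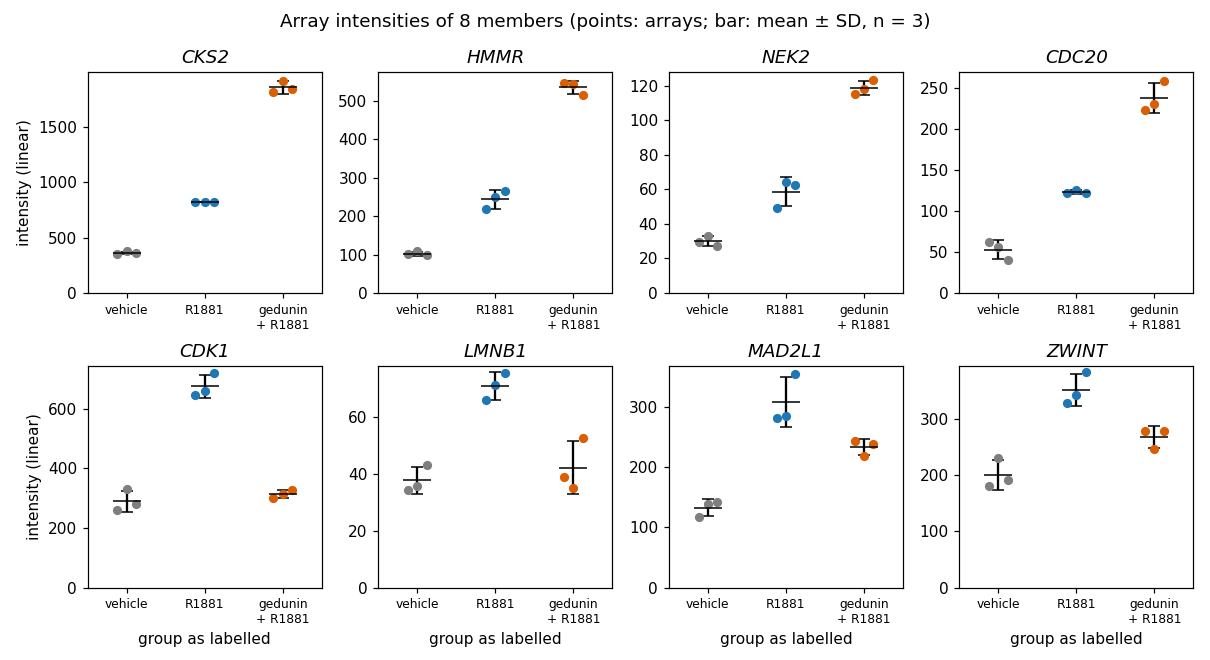
Intensity on a linear scale (vertical axis) of 8 genes on each array of the 3 groups as labelled; points are arrays and bars give the mean ± SD (n = 3). In the upper row (CKS2, HMMR, NEK2 and CDC20) the gedunin arrays are highest, and in the lower row (CDK1, LMNB1, MAD2L1 and ZWINT) the arrays labelled R1881 are.

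Among 10 genes for spindle motors and microtubule factors, 9 were higher in the first comparison and 8 in the second, with 0 lower in either. HMMR, which encodes a microtubule-binding protein of spindle poles, measured 101, 109 and 97.7 on the arrays labelled vehicle, 218, 248.7 and 266 on those labelled R1881, and 546, 544 and 514 on the gedunin arrays. The groups were well apart, with log2 fold changes of 1.25 ± 0.08 (adjusted p = 3.14e-08) and 1.13 ± 0.08 (adjusted p = 1.09e-07), and 1.76 ± 0.07 in the fourth comparison (adjusted p = 7.44e-10). DLGAP5, a spindle microtubule stabiliser, measured 38.5, 38.5 and 35.8, then 95.4, 95.1 and 95.4, then 162, 182 and 170. DLGAP5 was higher by 1.34 ± 0.06 (approximate for low values on the arrays labelled vehicle, adjusted p = 1.59e-09) and by 0.84 ± 0.06 (adjusted p = 1.9e-07).

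TACC3, which strengthens spindle fibres, was higher by 0.36 in the first comparison and 0.75 in the second. TPX2, an activator of aurora A, was higher by 0.97 and 0.57 and the depolymerising kinesin gene KIF2C by 0.56 and 0.65. NUSAP1, a spindle-associated protein, was higher by 1.24 and then by 0.24 ± 0.07, and SPAG5, for astrin, by 0.61 and then by 0.30 ± 0.10. Neither of these second calls held without every array. That of NUSAP1 ended without R1881 replicate 1 or 3 or gedunin replicate 2 or 3 (adjusted p from 0.051 to 0.0881). That of SPAG5 ended without vehicle replicate 1, any 1 array labelled R1881, or gedunin replicate 1 or 3 (adjusted p from 0.058 to 0.142). KIF11, the motor that separates spindle poles, and ASPM stayed below the lowest array median in every group, which makes their changes of 0.52 and 0.40 in the first comparison approximate. That of ASPM ended without vehicle replicate 1 or 3 or R1881 replicate 1 (adjusted p from 0.0548 to 0.0745). GTSE1 was called in neither comparison by its brightest probe set (0.06 in both).

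All 8 genes of the midzone and cytokinesis group were higher in the first comparison, and in the second 4 were higher and 1 lower. RACGAP1, a subunit of the centralspindlin complex, averaged 88.0 ± 5.79, 212 ± 13.9 and 294 ± 16.6 (intensity, SD, n = 3, vehicle, R1881 and gedunin arrays). KIF20A, a midzone kinesin, averaged 51.3 ± 9.93, 95.8 ± 4.09 and 174 ± 15.3. PRC1, which bundles midzone microtubules, was higher by 1.15 and 0.51 and the chromokinesin gene KIF4A by 0.70 and 0.51. ECT2, which activates RHOA at the division plane, was higher by 1.06 in the first comparison and not called in the second (0.23 ± 0.09, adjusted p = 0.0979). For KIF20A, KIF4A and ECT2 the mean on the arrays labelled vehicle lay under the lowest array median, which makes folds against it approximate. KIF14 and KIF23 lay under the lowest array median in all groups. Their first calls ended without several arrays: KIF14 without any 1 array but vehicle replicate 3 (adjusted p from 0.0544 to 0.175), and KIF23 without vehicle replicate 3 or R1881 replicate 1 or 2 (0.065 to 0.109).

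BIRC5, for the passenger protein survivin, measured 96.6, 109 and 88.5, then 184, 170 and 181, then 159, 150 and 150, with the gedunin arrays in between. It was higher by 0.87 ± 0.07 and then lower at -0.22 ± 0.07 (adjusted p = 0.0385). This second call ended without vehicle replicate 1, R1881 replicate 1 or 3, or any 1 gedunin array (adjusted p from 0.0527 to 0.118), and a dimmer BIRC5 probe set was called higher at 0.23. In the third comparison the brightest BIRC5 probe set was higher by 0.64 ± 0.07 (adjusted p = 1.98e-05).

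Of 4 genes of anaphase proteolysis, 3 were higher in the first comparison and 2 in the second. CDC20, the activator of the anaphase-promoting complex, measured 62.5, 55.9 and 40.7 on the arrays labelled vehicle, 122, 126 and 122 on those labelled R1881, and 224, 231 and 259 on the gedunin arrays. It was higher by 1.24 ± 0.12 (adjusted p = 3.62e-06), 0.94 ± 0.12 (adjusted p = 5.09e-05) and, in the fourth comparison, 1.56 ± 0.11 (adjusted p = 1.83e-07). PTTG1, for securin, was higher by 0.73 and 0.26. UBE2C, the ubiquitin-conjugating enzyme of the complex, was higher by 0.75 and then not called at 0.13 ± 0.06 (adjusted p = 0.138). ESPL1, for separase, was not called (-0.02 and 0.05).

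Of 6 genes of chromosome and nuclear structure, 4 were higher in the first comparison, and in the second 1 was higher and 1 lower. TOP2A, topoisomerase II alpha, which untangles sister chromatids, measured 35.3, 44.2 and 34.1 on the arrays labelled vehicle, 112, 125 and 143 on those labelled R1881, and 172, 125 and 125 on the gedunin arrays. TOP2A was higher by 1.74 ± 0.13 in the first comparison (approximate, adjusted p = 3.31e-07), the largest of the 54, and not called in the second (0.15 ± 0.13, adjusted p = 0.505). LMNB1, for lamin B1 of the nuclear envelope, measured 34.3, 35.6 and 43.2, then 65.9, 71.2 and 75.4, then 38.9, 35.0 and 52.6. The arrays labelled R1881 lay above all others, and the other two groups overlapped. LMNB1 was higher by 0.92 ± 0.13 (adjusted p = 0.000106) and then lower at -0.77 ± 0.13 (adjusted p = 0.000491), both approximate. In the third comparison it was not called (0.15 ± 0.13, adjusted p = 0.489). In the fourth comparison it was not called at -0.31 ± 0.11 (adjusted p = 0.0602), though it was without gedunin replicate 3 (-0.48, adjusted p = 0.00238).

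The condensin gene NCAPG was higher by 0.69 and 0.39, the first approximate as its mean on the arrays labelled vehicle lay under the lowest array median. SMC4 was higher by 0.57 and then not called at 0.22 ± 0.09, and NCAPH was called in neither. MKI67, whose product Ki-67 is a marker of dividing cells, measured 78.4, 86.2 and 88.1, then 94.9, 99.3 and 85.9, then 88.1, 88.1 and 101. All groups overlapped, at 0.15 ± 0.08 (adjusted p = 0.181) and -0.02 ± 0.08 (adjusted p = 0.92). FOXM1, a transcription factor that acts on many genes of this wave, measured 93.9, 102 and 90.9, then 119, 119 and 116, then 121, 116 and 126. FOXM1 was higher by 0.31 ± 0.06 in the first comparison (adjusted p = 0.00142) and was at 0.03 ± 0.06 in the second (adjusted p = 0.788), where its groups overlapped. Its call in the fourth comparison (0.18 ± 0.05, adjusted p = 0.018) ended without gedunin replicate 1 or 3 (adjusted p = 0.0629 and 0.0969).

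Probe sets of a gene did not always read alike. Of 17 genes with several, folds lay over 1.5 times apart for 5 genes in the first comparison and 4 in the second (AURKA, BUB1, CENPF and TOP2A). CENPF and BIRC5 had probe sets called in both directions in the second comparison, and 0 genes had in the first. For TOP2A the dimmer probe set averaged 25.0, 64.0 and 30.8 in the order vehicle, R1881 and gedunin. It was lower by 1.05 on the log2 scale in the second comparison (-1.05, adjusted p = 4.72e-07 over all probe sets) and lower in the fourth (-0.37), where the brightest was higher (1.02).

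For BUB1, the checkpoint kinase, the brightest probe set was not called, while 1 of the others averaged 23.0, 34.1 and 68.4 and was higher by 0.57 and 1.00 (adjusted p = 1.93e-05 and 1.28e-07). Another BUB1 probe set was higher by 0.50 and 0.32, and the remaining ones were called in neither comparison (0.03 and -0.07, 0.05 and 0.04). For CDC25C a dimmer probe set was higher by 0.40 and 0.41, and for GTSE1, a regulator of microtubules and p53, one was higher by 0.32 and 0.30. Another of CDC25C (0.19 and 0.08) and another of GTSE1 (0.62 and 0.30) were called in the first comparison but not in the second. A further GTSE1 probe set was called in neither (0.04 and 0.18). For AURKA a dimmer probe set was higher by 0.89 and 1.09, while another was called in neither (0.04 and -0.002). None of 4 MKI67 probe sets was called in the second comparison (-0.08 to 0.03), and 2 were in the first (0.23 and 0.29). Several of these dimmer probe sets had group means below the lowest array median, where folds are approximate.

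**Figure D4:**
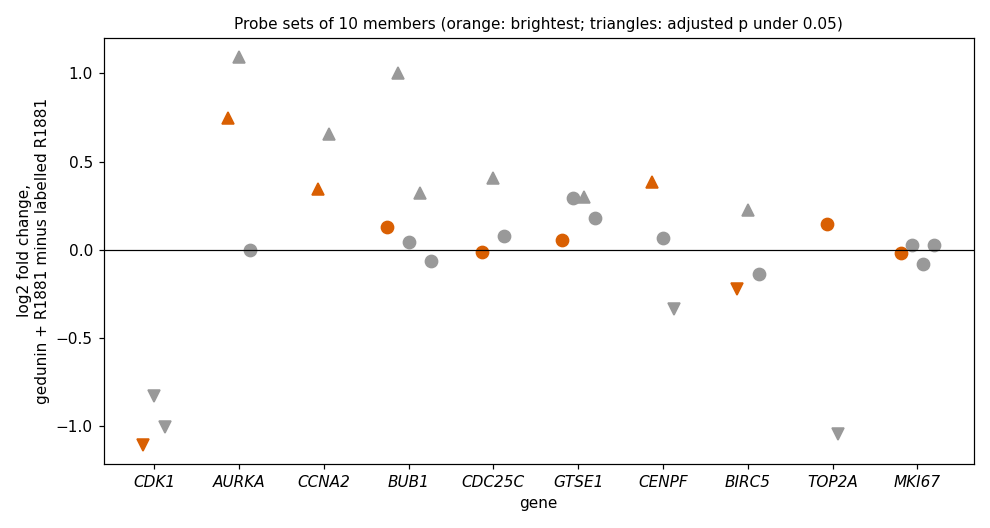
Log2 fold change of gedunin arrays minus arrays labelled R1881 (vertical axis) for each probe set of 10 genes; orange marks the brightest probe set, and triangles mark those called, pointing up or down. All 3 CDK1 probe sets point down, the 2 TOP2A probe sets lie at 0.15 and -1.05, and the MKI67 probe sets lie near 0.

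Related genes outside the 54 were written down as 5 lists. Their counts are to be read against the 16.7% higher and 13.6% lower of all genes in the first comparison and the 14.0% and 13.4% in the second. These directions too rest on the labels vehicle and R1881, and the third comparison stands for the second if they are exchanged. Counts in the third and the fourth are given last. Among 42 measured of 52 further kinetochore and spindle genes, 21 were higher and 4 lower in the first comparison (median 0.22), and 13 higher and 4 lower in the second (median 0.07). HMGB2, a chromatin protein, was higher by 1.13 and 0.44, and the kinesin gene KIF22 was lower in the first (-1.40) and not called in the second (-0.12). CEP55, which recruits the abscission machinery, was higher by 0.51 and 0.83, while KPNA2, an importin, was higher by 0.96 and then lower at -0.51. KPNA2 averaged 654, 1279 and 892 over the groups, so the gedunin arrays lay above those labelled vehicle. In the fourth comparison KPNA2 was not called (-0.03). CENPN, which binds centromeric nucleosomes, was lower in the first comparison at -3.06 and higher in the second at 1.82, and averaged 2412, 290 and 1027 over the groups. Of 14 measured of 15 condensin and cohesin genes, 8 were higher and 2 lower in the first comparison, and 1 higher and 2 lower in the second, near or under the share of all genes. NCAPD3, a condensin II subunit, was the extreme at -4.16 in the first comparison, with group means of 3925, 220 and 376. It was higher by 0.77 in the second and lower at -1.31 in the fourth, where CENPN was higher by 0.29. The means of CENPN and NCAPD3 ran in the order of those of KLK3, so their signs in the first and second rest on the labels that KLK3 contradicts.

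Of 11 measured of 17 genes for the anaphase-promoting complex and its regulators, 2 were higher and 2 lower in the first comparison and 3 and 3 in the second (medians 0.05 and -0.02), the first being near the share of all genes. ANAPC13, a small subunit, was lower in the first (-0.43) and in the second (-0.24). UBE2S, its chain-extending enzyme, was higher by 0.54 in the second, and FBXO5, its inhibitor EMI1, was lower at -0.44, at intensities under the lowest array median. Of 19 measured of 23 regulators of cell cycle transcription, 5 were higher and 1 lower in the first comparison and 0 higher and 6 lower in the second. TFDP1, the partner of E2F factors, averaged 172, 312 and 133 and changed by 0.86 and then -1.23. RBL2, the pocket protein p130 of resting cells, changed by 0.46 and -0.35, and MYBL2 was called in neither (-0.02 and 0.05). NFYB, a subunit of the CCAAT-binding factor, was higher by 0.40 in the first and not called in the second (0.21). At an unadjusted p under 0.05 in limma, 2 genes of that list were higher in the second comparison. NFYB was named after its values were seen.

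Of 12 measured of 14 regulators of mitotic entry, 7 were higher and 1 lower in the first comparison and 3 and 3 in the second. GADD45A, a stress-induced protein that restrains CDK1, was higher by 0.44 and 0.82. CDKN1A, for the CDK inhibitor p21, was not called in the first comparison (0.09) and was higher by 0.70 in the second. CCNG2, a cyclin of non-dividing cells, was higher by 1.79 and then lower at -1.02. It averaged 144, 502 and 248 over the groups, so the gedunin arrays lay above those labelled vehicle. In the fourth comparison CCNG2 was not called (-0.12). WEE1, the kinase that holds CDK1 inactive, was higher by 0.27 in the first and not called in the second (0.09). In the third comparison, 21 of the 42 kinetochore and spindle genes were higher and 3 lower. Counts there were 7 and 2 for condensin and cohesin and 3 and 2 for the anaphase-promoting complex. Those for transcription were 1 and 3, and for mitotic entry 5 and 0 (all genes 15.0% and 11.9%). In the fourth they were 17 and 2, 4 and 3, 3 and 3, 1 and 5, and 4 and 2 in the same order of lists (all genes 14.4% and 12.1%).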

How the data were processed

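The authors deposited linear intensities, 1 for each probe set on each array. Between 492 and 960 values were equal for each pair of arrays. All 3 arrays of a group were equal for 98 genes (vehicle), 57 (R1881) and 105 (gedunin). Some arrays labelled R1881 shared a value for CCNB2, CKS2, DLGAP5 and CDC20. Equal values can make an SD or SE small, and their effect on the calls was not tested. The submitters' processing notes name RMA, which makes the arrays' distributions alike and so hides any change in a cell's total RNA; its program is not given in sources used here. All work was on log2 intensity. The 22277 probe sets included 62 controls; 19064 had 1 symbol, 1043 several and 2108 none; 12 with 1 symbol had no match by gene identifier in RefSeq (GRCh38.p14). Each gene was read from its brightest probe set (mean of 9 arrays).

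Limma 3.58.1 (R 4.3.3) was fitted to 11963 genes with 1 coefficient per group over all 9 arrays and eBayes (6.38 prior degrees of freedom), two-sided. P-values were adjusted by the Benjamini-Hochberg method across genes and called under 0.05; the script was tested on simulated data. Probe sets were also fitted singly. Precision is limited by 3 arrays per group.

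The 54 genes, the lists, role groups and tests were chosen with earlier results of these data known. Values per array are given for the 4 largest rises and falls among called genes without group overlap in the first, the second and the fourth comparison and for CDK1, CCNB1, CCNA2, PLK1, AURKA, TOP2A, MKI67 and FOXM1, with CKS1B and AURKB as paralogs and BIRC5 added after its values were seen. From the related lists, some of the genes with the largest called change in a direction and comparison were named, with a few fixed regulators. Alternatives covered replicate block, left-out arrays, probe set choice, dim genes, scaling, offset, variance trend and groups fitted.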

Additional observations from a re-analysis of the deposited data

How the results depend on the processing

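The counts of called genes stayed within 1.5 times under all alternatives run. With no single array left out they were 43 to 49 of the 54 genes (of 50 without dim genes) in the first comparison against 45, 34 to 40 in the second against 35, 41 to 49 in the third against 44, and 40 to 45 in the fourth against 42. Leaving out each array in turn gave 41 to 46, 30 to 36, 43 to 45 and 40 to 43. With the replicate number as a block the counts were 46, 36, 45 and 43; same-numbered arrays of different groups had deviations from their group means that correlated between -0.107 and 0.133, so pairing is not borne out. LMNB1 was then called lower in the fourth comparison (-0.31, adjusted p = 0.00679; 0.0447 without dim genes and 0.0432 with a variance trend).

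Signs turned for values near 0. Without single arrays, the second comparison ran from -0.0075 to 0.24 for TOP2A, from -0.081 to 0.030 for MKI67 and from -0.082 to 0.021 for AURKB; the third from -0.024 to 0.27 for LMNB1; the fourth from -0.018 to 0.079 for ZWINT, from -0.0074 to 0.091 for MKI67 and from -0.033 to 0.070 for AURKB. Quantile normalization gave ZWINT -0.011 in the fourth, and the mean of both probe sets gave TOP2A -0.45 in the second (adjusted p = 0.00226), since its probe sets differ. In the fourth, FOXM1 lost its call without gedunin replicate 1 or 3 (adjusted p = 0.0629 and 0.0969), and MAD2L1 gained one without R1881 replicate 3 (0.27, adjusted p = 0.0118). The mean of its probe sets called MKI67 higher in the first (0.18, adjusted p = 0.00912) and the third (0.17, adjusted p = 0.0143). Genes under the lowest array median limit what these arrays can show: 18 of the 54 had a group mean there.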
